A study of Rattus norvegicus with 5 samples.

Results

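The cadherins and catenins that join epithelial cells at adherens junctions were examined in FRT cells, a Fischer rat thyroid line, together with cadherin-16 (Cdh16). The 10 genes were Cdh16, Cdh17, Cdh1, Cdh2, Cdh3, Ctnnb1, Ctnna1, Ctnnd1, Nectin2 and Afdn, out of 15154 genes read on the arrays. They were found by pairing the accession of each array probe with a rat gene symbol, and 12 probes represented them. Follicles formed from these cells over 5 days of 3D culture in Matrigel, a gel of basement membrane proteins, were set against confluent 2D monolayers of the same line, and the labels name no transgene or drug in either. On 4 Agilent 2-colour arrays the RNA of a separate 3D culture was labelled with Cy5 and hybridized beside Cy3-labelled RNA from a pool of 4 monolayer cultures. On 1 additional array the dyes were exchanged, with Cy5 on the monolayer pool and Cy3 on pooled follicle RNA from 4 cultures. The replicate arrays therefore hold 4 3D cultures of 1 cell line, and the spread between monolayer cultures is in none of the values below.

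Classical cadherins are transmembrane proteins that bind each other across the gap between neighbouring cells. Their cytoplasmic tail holds beta-catenin and p120-catenin, and alpha-catenin links beta-catenin to actin filaments. Nectins are immunoglobulin-like adhesion proteins that are tied to actin through afadin and that act beside the cadherins. Cdh16 (kidney-specific cadherin) and Cdh17 (liver-intestine cadherin) are atypical cadherins with a short tail that lacks the catenin-binding region. Cdh16 is known from the lateral membranes of kidney tubules and of thyroid follicular cells.

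Values are log2 ratios of 3D over 2D, so that 1 unit is a doubling, and an adjusted p is that of limma over all 15154 genes, with a false discovery rate (FDR) of 0.01 as the threshold. Of the 10 genes, 5 were higher in 3D (Cdh3, Cdh16, Ctnnd1, Ctnnb1 and Nectin2) and 0 were lower. Over all genes tested, 14.4% were higher and 11.5% lower. Shares are larger among the 9018 genes well above background in at least 1 condition, of which 43.4% passed in either direction. A fit of those 9018 genes alone called 2214 higher and 1751 lower. Cdh1, Ctnna1 and Afdn were well above background on all 5 arrays and did not pass the test, and Cdh2 and Cdh17 were not well above background on any array in either condition.

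**Figure D1:**
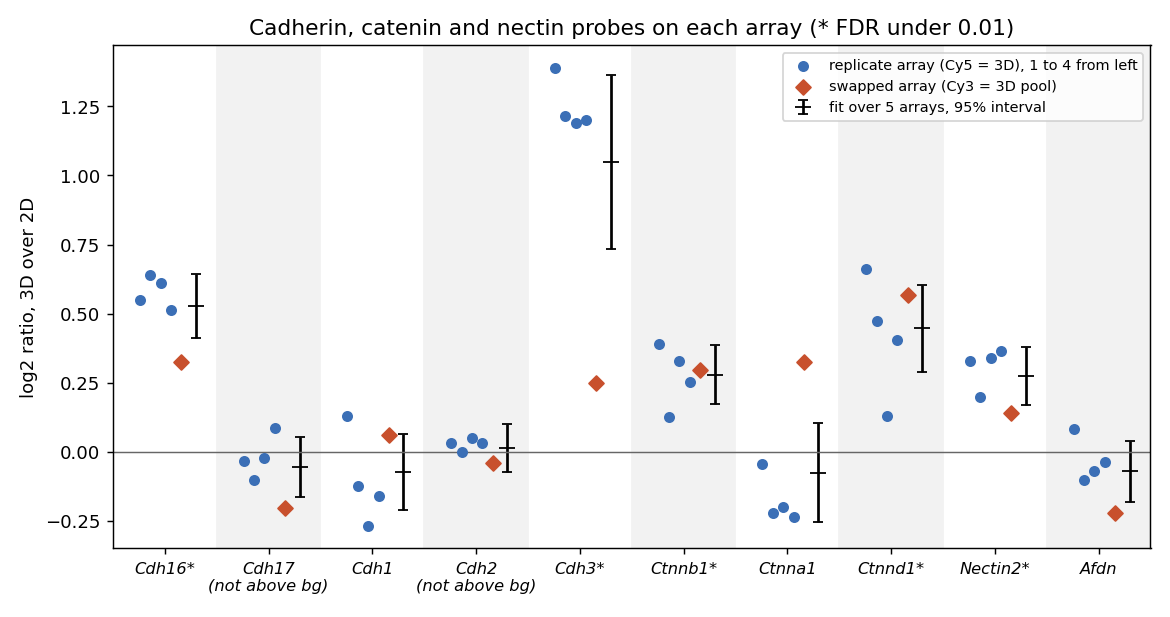
Log2 ratio of 3D over 2D (y axis) for the 10 genes (x axis), each read from its brightest probe. Blue points are the replicate arrays, red diamonds the array with exchanged dyes, black bars the fitted mean with its 95% interval, and asterisks mark FDR under 0.01. The 5 blue and red points of Cdh16, Cdh3, Ctnnb1, Ctnnd1 and Nectin2 lie above 0, while the red diamond of Cdh3 (0.25) sits far below its blue points (1.19 to 1.39) and that of Ctnna1 (0.32) far above its own (-0.24 to -0.05).

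Cdh16 lies on rat chromosome 19 (GRCr8, chr19:367202-377710) and was read from 1 probe. Its log2 ratio was 0.55, 0.64, 0.61 and 0.51 in replicates 1 to 4, and 0.33 after the dyes were exchanged. All 5 values lay above 0, with a mean of 0.58 ± 0.06 (SD, n = 4) across the 3D cultures. The fitted log2 fold change was 0.53 (SE 0.05, limma adjusted p = 3.67e-05), a 1.44-fold rise with a 95% interval of 1.33 to 1.56. Among all genes, 4.80% had a larger fold change. Its normalized log2 signal in the 3D cultures was 13.99, 13.63, 13.47 and 13.49, against 13.44, 12.99, 12.86 and 12.97 in the monolayer pool on the same arrays. The exchanged array gave 13.76 in 3D and 13.44 in 2D. The 3D signal was the higher on every array. The same pooled monolayer RNA ranged from 12.86 to 13.44 over its 5 hybridizations, so that its highest reading came close to the lowest 3D reading of another array.

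Ratios were also compared with those of Cdh16 among the genes well above background in both conditions. The genes whose 5 ratios lay nearest were Trappc9 (distance 0.09), Rsu1 (0.09) and Ankmy2 (0.10). The distance is Euclidean over the 5 arrays, in log2 units. Trappc9 encodes a subunit of a vesicle tethering complex and Rsu1 a partner of integrin-linked adhesion proteins. Their fitted log2 fold changes were 0.52, 0.54 and 0.54. They were selected for this likeness, and no test was made.

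Pax8 is a thyroid and kidney transcription factor that is known to activate Cdh16. Of 6 measured regulators and partners of Cdh16, 1 was higher and 0 were lower, and the median log2 fold change was 0.05. The gene that rose was Pax8. Its ratio was 0.65, 1.02, 0.91 and 0.91 in replicates 1 to 4 and 0.05 after dye exchange. Its fitted change was 0.71 (limma adjusted p = 0.0013) and 0.46 with a dye term (0.000412), and it did not pass with a background offset of 0 (0.0191) or with Agilent's processed signals (0.0281). Thus the array with exchanged dyes gave the lowest value for both Pax8 and Cdh16, with a smaller gap for Cdh16. Vil1, which encodes villin of microvilli, was not well above background on any array.

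Cdh17 (chr5:30024544-30112226), the cadherin of the liver and intestine with a tail like that of Cdh16, had log2 signals of 6.10 to 6.20 in the 3D cultures and 6.12 to 6.22 in the pool beside them. Neither channel rose well above background, so no fold change is given for it.

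**Figure D2:**
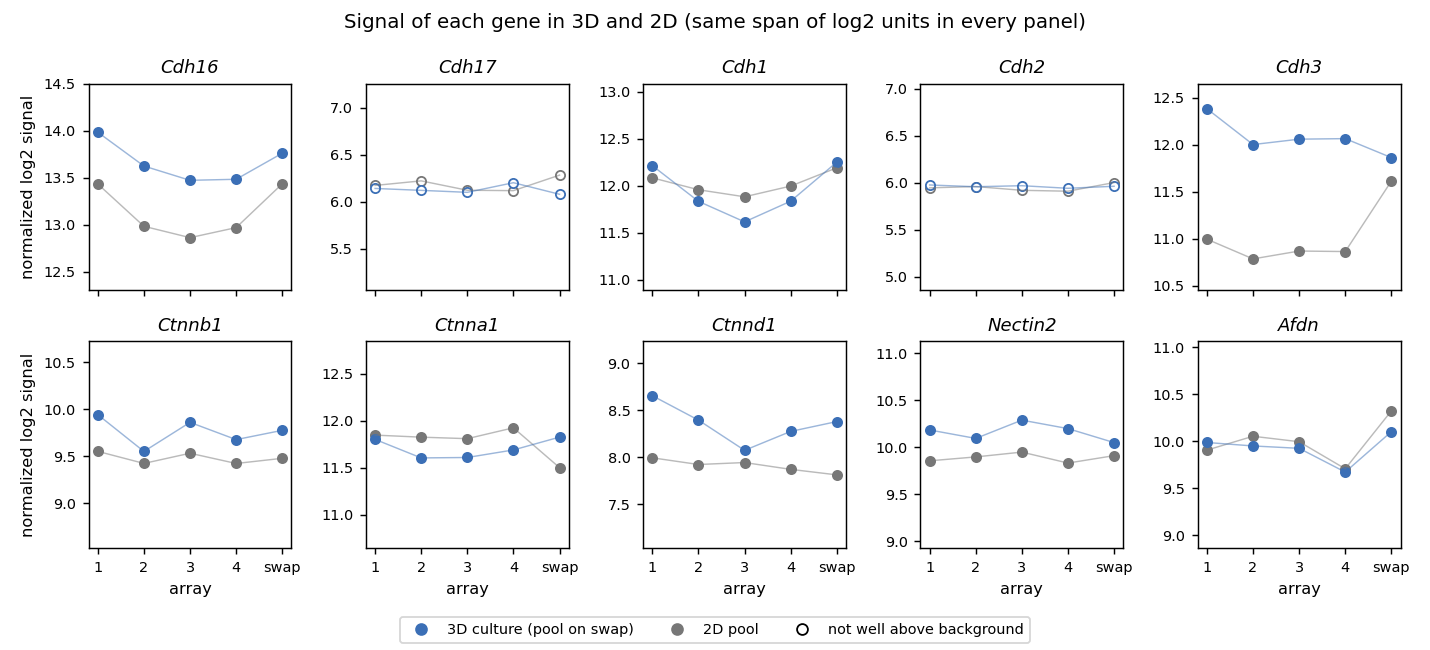
Normalized log2 signal (y axis) of each gene on replicate arrays 1 to 4 and on the array with exchanged dyes (x axis), in 3D (blue) and in the monolayer pool (grey); open circles were not well above background. Each panel spans the same number of log2 units around its own level, and levels of different genes are not comparable because each probe binds with its own strength. The 3D points of Cdh16, Ctnnb1, Ctnnd1 and Nectin2 lie above the 2D points on all 5 arrays, and the 2D point of Cdh3 moves from 10.78 to 10.99 on the replicate arrays up to 11.61 after dye exchange.

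Cdh3 encodes P-cadherin, a classical cadherin of epithelia, and had the largest difference of the 10 genes. It lies close to Cdh1 on chromosome 19 (chr19:51303414-51353900). Its log2 ratio was 1.39, 1.22, 1.19 and 1.20 in replicates 1 to 4, with a mean of 1.25 ± 0.09 (SD, n = 4). After dye exchange it was 0.25, still above 0 and below every replicate. The fitted log2 fold change was 1.05 (SE 0.14, limma adjusted p = 0.000263), which is 2.07-fold with a 95% interval of 1.66 to 2.57, and 1.06% of all genes had a larger one. When a term for the dye was added the 3D change was 0.75 (limma adjusted p = 4.7e-06), with a dye effect of 0.50 (limma adjusted p = 0.00204). Of all genes, 288 (1.90%) had such an effect at the same threshold. Without the exchanged array the change was 1.25 (limma adjusted p = 1.15e-07). A dye effect and any other property of that 1 array cannot be told apart, and the size of the Cdh3 rise thus lay between 0.75 and 1.25 in these fits.

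Cdh1 (chr19:51402178-51471572), which encodes E-cadherin, the main cadherin of epithelia, gave a mixed picture. Its log2 ratio was 0.13 in replicate 1, -0.12 in replicate 2, -0.27 in replicate 3 and -0.16 in replicate 4, and 0.06 on the exchanged array. The signs differed between cultures, and the fitted value of -0.07 (SE 0.06, limma adjusted p = 0.435) did not pass. Its 95% interval ran from 0.87-fold to 1.05-fold. On each of the 5 arrays the ratio of Cdh3 exceeded that of Cdh1, by 1.26, 1.34, 1.46 and 1.36 in the replicates and by 0.19 after dye exchange. The ratio of Cdh16 also exceeded that of Cdh1 on all 5 arrays, by 0.42 to 0.88 in the replicates and by 0.26 after dye exchange. These differences were not tested.

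Cdh2 (chr18:8051097-8265288), which encodes N-cadherin, the cadherin of neural and mesenchymal cells, was not well above background in any of the 10 readings. Its log2 signal lay between 5.94 and 5.98 in the 3D cultures and between 5.91 and 5.96 in the pool on the same arrays. Its level in the conditions could therefore not be compared.

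Among the catenins, 2 of 3 rose in 3D. Ctnnb1 (chr8:129517576-129544661) encodes beta-catenin, which binds the cadherin tail and also acts in Wnt signalling. Its log2 ratio was 0.39, 0.13, 0.33 and 0.25 in the replicates and 0.30 on the exchanged array, all above 0. The fitted change of 0.28 (SE 0.05, limma adjusted p = 0.00114) amounts to 1.21-fold, with a 95% interval of 1.13 to 1.31. The dye effect was -0.01 (limma adjusted p = 0.918).

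Ctnnd1 (chr3:90090025-90141247, minus strand) encodes p120-catenin, which binds cadherins near the membrane and is known to slow their endocytosis. It was read by 2 probes. The brighter gave log2 ratios of 0.66, 0.47, 0.13 and 0.40 in replicates 1 to 4 and 0.57 after dye exchange. The dimmer gave 0.55, 0.51, 0.66 and 0.45, and 0.07 after dye exchange. Replicate 3 was thus the lowest of the replicates on one probe and the highest on the other, and the exchanged array was far lower on the dimmer probe. Both fits still came to 0.45, with an SE of 0.07 and limma adjusted p = 0.000764 over genes for the brighter probe, and an SE of 0.08 and limma adjusted p = 0.00106 over all probes for the dimmer. Over all 30367 probes, 10.6% were higher in 3D, and 6 of the 12 probes of these genes were.

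Of the 10 genes, 2 had a promoter window in the RefSeq table used (GRCr8), Ctnnb1 and Ctnnd1, and the annotated start used for Ctnnb1 lay 16561 bases inside the gene. A stretch of 80 bases is shown for Ctnnd1, whose start lay 58 bases inside the annotated gene, from -150 to -71 of the annotated start (chr3:90141260-90141339, minus strand). Capitals mark ATTGG, the reverse complement of the CCAAT box, a common promoter motif.
Ctnnd1: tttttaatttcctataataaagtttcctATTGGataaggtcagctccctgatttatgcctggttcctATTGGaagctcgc
The 2 matches stand at -122 to -118 and at -83 to -79. On either strand CCAAT was found in 37.5% of the 33469 windows in the table, and at least 2 matches in 11.2%. The E-box CACCTG, the sequence that Snail and Zeb repressors bind, was not in the windows of Ctnnd1 and Ctnnb1 on either strand and was in 18.8% of all windows. A match describes letters only.

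Ctnna1 (chr18:27002330-27135009) encodes alpha-catenin, the link to actin, and its arrays disagreed. The log2 ratio was -0.05, -0.22, -0.20 and -0.24 in replicates 1 to 4, all below 0, and 0.32 on the exchanged array. Over 5 arrays the fitted value was -0.08 (SE 0.08, limma adjusted p = 0.54), with a 95% interval of 0.84-fold to 1.07-fold. Without the exchanged array Ctnna1 was lower in 3D, at -0.18 (limma adjusted p = 0.00957), and with a dye term it was 0.07 (limma adjusted p = 0.323), so neither its direction nor its call was settled. The ratio of Ctnnd1 exceeded that of Ctnna1 on all 5 arrays, by 0.33 to 0.71 in the replicates and by 0.24 after dye exchange. That of Ctnnb1 exceeded it on 4 of 5, by 0.35 to 0.53 in the replicates, and was 0.03 lower after dye exchange.

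The nectin system gave 1 rise of 2 genes. Nectin2 (chr1:88500086-88535474), an adhesion receptor of epithelial junctions, had log2 ratios of 0.33, 0.20, 0.34 and 0.37 in the replicates and 0.14 after dye exchange, all above 0. The fitted change was 0.27 (SE 0.05, limma adjusted p = 0.00134), or 1.21-fold with a 95% interval of 1.12 to 1.30. Afdn (chr1:58041065-58170505) encodes afadin, the adaptor between nectins and actin, and was read by 2 probes. Its brighter probe gave 0.08, -0.10, -0.07 and -0.04 in the replicates and -0.22 after dye exchange, with a fitted value of -0.07 (SE 0.05, limma adjusted p = 0.341) and a 95% interval of 0.88-fold to 1.03-fold. Its dimmer probe gave 0.02, 0.08, 0.11 and 0.13, and -0.40 after dye exchange. The probes of Afdn thus differed in sign in 3 of 4 cultures, and neither passed the test.

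**Figure D3:**
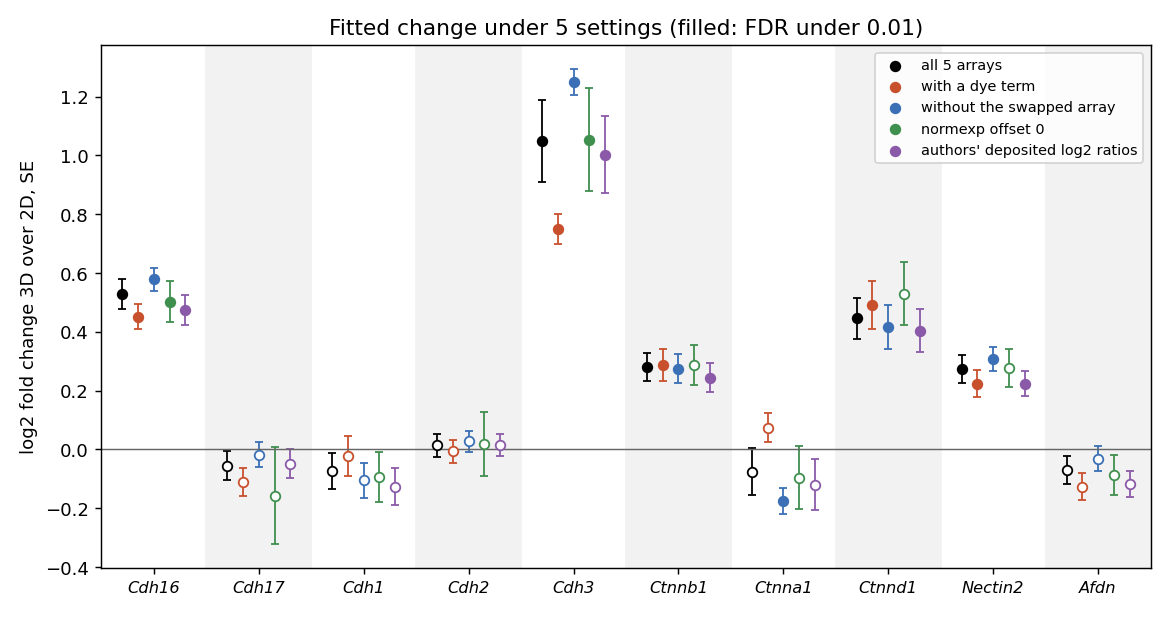
Fitted log2 fold change of 3D over 2D with its SE (y axis) for the 10 genes (x axis) under 5 settings, given by colour; filled points passed FDR under 0.01. Cdh16 stays between 0.45 and 0.58 and Cdh3 between 0.75 and 1.25, Ctnnb1, Ctnnd1 and Nectin2 are open with a background offset of 0, and Ctnna1 is filled in 1 setting, without the exchanged array.

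The calls of Ctnnb1, Ctnnd1 and Nectin2 depended on the background offset, a constant of 50 added before taking logs. With an offset of 0 their fold changes were 0.29, 0.53 and 0.28 and the limma adjusted p was 0.0265, 0.0153 and 0.0262, and Cdh16 (0.0037) and Cdh3 (0.00736) still passed. With Agilent's processed signals Cdh3, at 1.09 (limma adjusted p = 0.0123), and Nectin2 did not pass. When ratios were centred on the array median without loess, 0 of the 10 genes passed, and 7 genes did in all, each higher in 3D. The log2 fold changes were larger in that setting, at 0.99 for Cdh16, 1.57 for Cdh3, 0.80 for Ctnnb1, 0.84 for Ctnnd1 and 0.81 for Nectin2 (limma adjusted p from 0.0911 to 0.206).

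Replicate 1 had the highest log2 ratio of the 4 cultures in 6 of the 10 genes, against 28.2% of 15151 genes in all. These were Cdh1, Cdh3, Ctnnb1, Ctnna1, Ctnnd1 and Afdn, each read from its brightest probe. On the dimmer probe of Afdn replicate 1 was the lowest (0.02 against 0.08 to 0.13). On that of Ctnnd1 replicate 3 was the highest (0.66 against 0.55 in replicate 1). The fits without replicate 1 called the same count of 5 genes higher.

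The other genes of cadherin adhesion were grouped by role, without the 10 genes above. Over all genes the median log2 fold change was 0.00. Of 13 other classical cadherins measured, 1 was higher and 0 lower, and 2 were above background (Cdh6 and Cdh5). Cdh6 encodes a cadherin of kidney epithelium. Its ratio was 1.61, 1.53, 1.36 and 1.41 in replicates 1 to 4 and 1.22 after dye exchange, and the fitted change of 1.42 (SE 0.06, limma adjusted p = 1.79e-07) exceeded that of Cdh3. It was 2.68-fold higher in 3D. The median of the group was -0.04.

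Of 17 protocadherins and distant cadherins measured, 2 were higher and 1 lower, with a median of 0.03. Cdhr1, a cadherin-related gene known from photoreceptors, was not well above background in 2D on any array and was at least 1.90-fold higher in 3D (limma adjusted p = 1.06e-05), taking the lowest signal above background on each array as a bound where the probe lay under it. Fat2, one of the giant cadherins, had a log2 fold change of 0.35 and Fat1, its relative, of -0.27. Fat2 passed in 7 of 15 alternatives and Fat1 in 8, and neither did with a dye term (limma adjusted p = 0.0115 and 0.0168). Fat2 also failed without any 1 of the replicates (limma adjusted p from 0.0126 to 0.0185) and Fat1 without replicate 2, 3 or 4 (0.0212 to 0.0225).

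Among 8 other catenins and armadillo proteins, 2 were higher and 1 lower, with a median of -0.06. Pkp2, plakophilin 2 of desmosomes, rose by 0.82 (SE 0.05, limma adjusted p = 1.78e-06), with ratios of 0.65 to 0.94 over the 5 arrays. Ctnnal1, an alpha-catenin-like gene, rose by 0.58 (limma adjusted p = 3.51e-05). Ctnnbip1, which encodes an inhibitor of the binding of beta-catenin to TCF factors, fell by 0.22 (limma adjusted p = 0.0034). Of 15 alternatives 9 called it, and it failed with a dye term (limma adjusted p = 0.0123) or without replicate 2, 3 or 4 (0.0170 to 0.0208). Among 7 other nectins and nectin-like genes, Nectin4 rose by 0.38 (limma adjusted p = 0.000203) and Pvr, the poliovirus receptor, fell by 0.73 (limma adjusted p = 1.29e-05). Pvr was lower on all 5 arrays, from -0.68 to -0.64 in the replicates and at -1.02 after dye exchange. The median of these genes was -0.03.

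Of 26 genes that link adherens junctions to actin and microtubules, 7 were higher and 4 lower, with a median of 0.08. Shroom3, which drives apical constriction of epithelial cells, rose by 1.21 (SE 0.06, limma adjusted p = 4.93e-07), with ratios from 0.99 to 1.43 over the arrays. Camsap3, which anchors microtubule minus ends, rose by 0.72 (limma adjusted p = 1.42e-06). Zyx, the focal adhesion protein zyxin, fell by 0.42 (limma adjusted p = 9.62e-05), and Ajuba, a related LIM protein, by 0.32 (limma adjusted p = 0.00643). As the mean of all its probes Zyx was -0.13 (limma adjusted p = 0.15). Of 15 alternatives 8 called Ajuba, which failed with a dye term (limma adjusted p = 0.0368) or without replicate 2, 3 or 4 (0.0321 to 0.0336).

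Of 27 genes for the turnover and processing of cadherins, 11 were higher and 3 lower, with a median of 0.16. Psen2, a presenilin subunit of gamma-secretase, rose by 0.85 (limma adjusted p = 0.000267), with 0.78 to 1.14 in the replicates and 0.26 after dye exchange. It did not pass with Agilent's processed signals (limma adjusted p = 0.0109) or with median centring (0.111). Ptprf, a receptor phosphatase that binds beta-catenin, rose by 0.82 (limma adjusted p = 4.7e-06). Src, a tyrosine kinase of junction and matrix signalling, fell by 0.55 (limma adjusted p = 9.3e-05) and Arf6, a GTPase of cadherin endocytosis, also by 0.55 (limma adjusted p = 8.94e-06). This group had the highest share of measured genes called higher among the adhesion lists, and no test of that share was made. The lists differed in how many genes were above background. Counted over those only, the share was 11 of 26 here and no longer the highest. It was 7 of 16 for the beta-catenin destruction complex and its nuclear partners, and 1 of 2 for the other classical cadherins.

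Of 15 regulators of cadherin transcription, 3 were higher and 0 lower, with a median of 0.01. Grhl2, an activator of epithelial genes including Cdh1, rose by 0.62 (limma adjusted p = 6.7e-06), with ratios of 0.48 to 0.75 over the arrays. Klf4 rose by 0.50 (limma adjusted p = 0.000406), and was lowest in replicate 1 (0.14). Snai1, Snai2, Twist1, Twist2 and Zeb2, which repress Cdh1 in other cells, were not above background on any array. These 5 were singled out after their values had been seen. Of the 15 regulators, 8 were above background, among them Tcf3 and Kdm1a on all 5 arrays in both conditions. Snai3 was above it on 1 array in each condition, and Zeb1 was not measured.

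Of 19 genes of the beta-catenin destruction complex and of its nuclear partners, 7 were higher and 2 lower, with a median of 0.07. Csnk1d, a casein kinase, rose by 0.79 (limma adjusted p = 8.58e-05), with 0.32 after dye exchange. Averaged over its probes it was 0.36 (limma adjusted p = 0.000134). Kank1, a scaffold that affects beta-catenin localization, rose by 0.43 (limma adjusted p = 0.000279). It did not pass with an offset of 0 (limma adjusted p = 0.0102) or with median centring (0.111). The genes that fell were Ctnnbip1 and Apc2, a relative of Apc. Apc2 was above background on 2 of 5 arrays in 2D and on 0 in 3D, so the size of its difference is uncertain (limma adjusted p = 0.00913). Of 15 alternatives 7 called it, and it failed when its probes were averaged (-0.09, limma adjusted p = 0.168) or without any 1 of the replicates (limma adjusted p from 0.0128 to 0.0337). Of 14 measured targets of beta-catenin, 1 was higher and 0 lower, with a median of -0.04. The gene called was Ascl2, a transcription factor of intestinal stem cells, which was above background on 4 arrays in 3D and on 0 in 2D, so that the size of its rise is uncertain (limma adjusted p = 0.00166). It passed in 11 of 15 alternatives. It failed with an offset of 0 (limma adjusted p = 0.0111), with median centring (0.198), or without replicate 2 (0.0105) or replicate 3 (0.0103). Of the 14 targets, 6 were above background on at least 1 array. Myc, Cd44 and Ccnd1 were above it on all 5 arrays in both conditions and did not pass in the main fit. Nkd2 and Rnf43, above it on 4 arrays in 3D and on 1 and 0 in 2D, did not pass either. Their counts of arrays, like those of Ascl2, also carry the dye. Cy5 held the 3D RNA on the replicate arrays, and more probes were above background in Cy5 on every array. Axin2, Lgr5, Lef1, Sp5 and Notum, named after their values had been seen, were not above background on any array.

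**Figure D4:**
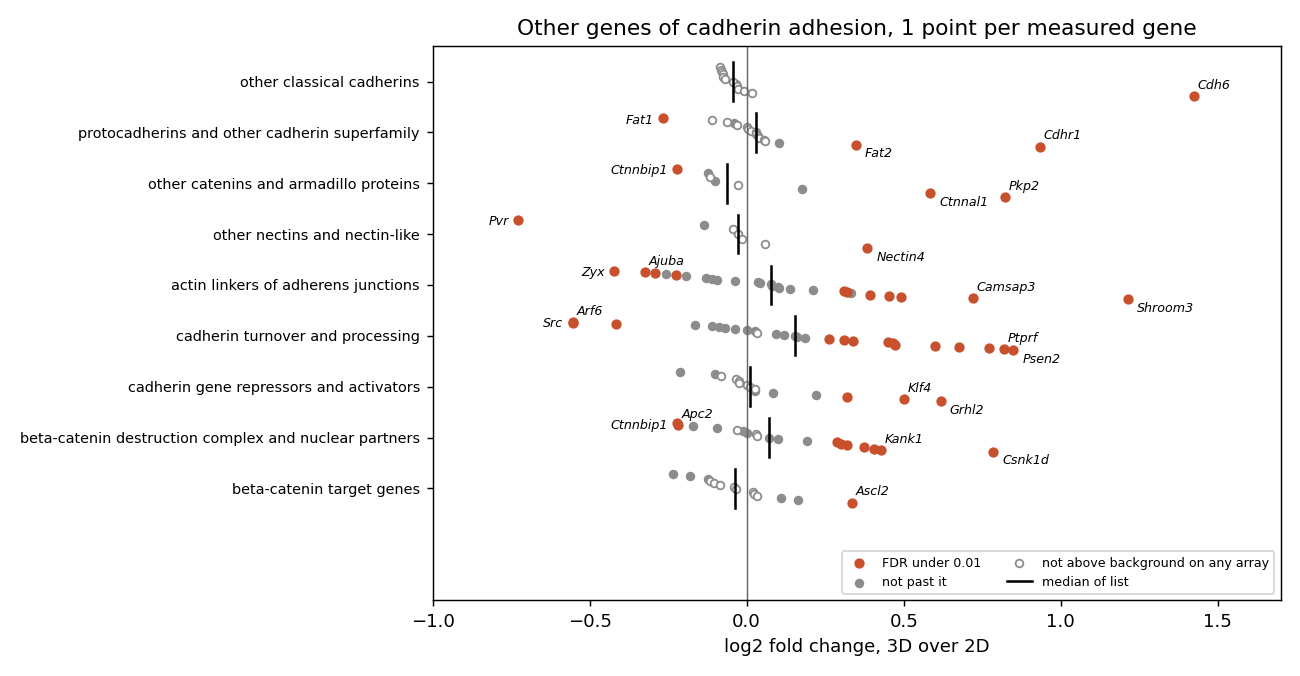
Fitted log2 fold change of 3D over 2D (x axis) for the other genes of cadherin adhesion in 9 lists (y axis), 1 point per measured gene; orange points passed FDR under 0.01, open points were not above background on any array, and vertical bars are list medians. Cdh6 (1.42) and Shroom3 (1.21) lie farthest to the right and Pvr (-0.73) farthest to the left, and medians run from -0.06 to 0.16.

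The cells were checked against markers of their label. All 12 epithelial genes measured were above background, of which 4 were higher (led by Elf3 at 1.82 and Krt19 at 1.23) and 2 lower (Cldn3 at -1.34 and Cldn4 at -0.48). Of 10 thyroid genes, 5 were above background on at least 1 array, and Pax8 and Duox2 (0.68) were higher. Duox2 did not pass with an offset of 0 (limma adjusted p = 0.0111) or with median centring (0.0323). Foxe1 and Hhex were above background on all 5 arrays in both conditions and did not pass (-0.02 each). Tg, Tshr, Slc5a5 and Nkx2-1 were not above background. Of 8 fibroblast markers 1 was higher, Pdgfra (0.55), and the summed normalized signal of the list was 736 to 871 in the 3D cultures and 682 to 708 in the pool, with Dcn, Lum, Thy1 and Pdgfrb not above background on any array, Col1a1 and Col3a1 above it on all 5 arrays in both conditions, and Col1a2 on 5 arrays in 3D and 4 in 2D. Of 7 leukocyte markers 1 was lower (Lyz2, -0.20, above background on 1 array in 3D and 2 in 2D). Of 15 alternatives 8 called Lyz2. It failed with a dye term (limma adjusted p = 0.0372), with an offset of 0 (0.0153) or without replicate 1, 2 or 3 (0.0311 to 0.0426). Of 6 endothelial and 6 C cell markers 0 passed, of which Pecam1, Kdr, Tek and Calca were not above background. The part of such cells in the results was not tested. In bulk RNA, fewer cells of a type and less RNA per cell cannot be told apart.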

How the data were processed

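The authors' spot intensities were deposited as median pixel values per channel with local background, read with Agilent Feature Extraction 10.7.3.1 and not normalized. Agilent's processed intensities and the authors' log2 ratios (normexp, loess, quantiles, in limma) are also deposited and served as alternatives. In R 4.3.3 with limma 3.58.1, background was corrected by normexp (offset 50), log ratios were normalized by loess (control spots weighted 0), and quantiles were applied to the average intensities. Spots of a probe were averaged, without scanner outliers (1.12% to 1.60% of spots). Each array held 30367 probes. On the replicate arrays 48.5% to 50.9% were above background in 3D (Cy5) and 45.0% to 47.7% in 2D (Cy3). On the exchanged array the shares were 47.1% in 3D (Cy3) and 50.1% in 2D (Cy5). Counts of arrays above background in 3D and in 2D thus carry this difference between the channels. Symbols came from a RefSeq table of GRCr8 by accession, and each gene was read from its brightest probe. A model with 1 coefficient over 5 arrays, signs turned for the exchanged array (whose pool is taken to hold the same 4 cultures, and which is then no independent sample), was tested with Benjamini-Hochberg adjustment. A second model added the dye. The number of arrays limits precision.

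The genes and lists were chosen with earlier results of these data known. Named in each list were at most 2 genes that rose and 2 that fell, those with the largest change of equal sign on all arrays and above background in at least 1 condition. Genes that did not pass were named outside this rule. The fit was also run on simulated ratios drawn with the spread of the replicate arrays. These held no dye effect, so they do not show how the fit handles the exchanged array. Some genes of the lists are not reported here by name.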

Additional observations from a re-analysis of the deposited data

Results flagged for a closer look

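Cdh3 in replicate 1 stood apart from the other 3D cultures, with a log2 ratio of 1.39 against 1.19 to 1.22. Its gap to the nearest other culture was 0.867 of the whole range, above the critical value of Dixon's test for 4 samples. Of the 12 probes examined this was 1, and chance flags about 1 in 20 groups.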

How the results depend on the processing

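Over 15 alternatives Cdh16 passed in 14, Cdh3, Ctnnb1 and Ctnnd1 in 13 each, Nectin2 in 12 and Ctnna1 in 1, and Cdh1 and Afdn in 0. Cdh2 and Cdh17 passed in 0 of 14, having no value among genes above background. With a normexp offset of 0, 2 of the 10 genes were higher, and 1178 genes were higher and 1044 lower in all. With Agilent's processed signals 3 of the 10 were higher, and 1443 genes in all. With median centring in place of loess 0 of the 10 passed, and 7 genes were higher and 0 lower; in that setting Cdh1 came to 0.43, Ctnna1 to 0.44, Afdn to 0.45, Cdh2 to -0.21, Fat1 to 0.24, Ctnnbip1 to 0.27, Ajuba to 0.21, Zyx to 0.0904 and Cldn4 to 0.0359. Cdh2, at background, also turned sign without background subtraction (-0.0013), with Agilent's processed signals (-0.0033) and with a dye term (-0.0061), and Ctnna1 with a dye term (0.0745). Without the exchanged array 1 of the 10, Ctnna1, was lower. Quantiles over all channels gave 49.3% of called genes as higher, the authors' ratios 49.2% and the values above 55.6%. The causes were not tested. Leaving out replicates in turn left 5 higher and 0 lower. No paired analysis was possible because the monolayer cultures were pooled.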
